A study of Mus musculus with 12 samples.

Results

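The genes described here encode the receptors for serotonin, acetylcholine, noradrenaline and adrenaline, measured as RNA in the developing cerebral cortex of mice. They were taken by symbol: serotonin receptors (Htr followed by a digit), muscarinic acetylcholine receptors (Chrm), subunits of nicotinic acetylcholine receptors (Chrn) and adrenergic receptors (Adra and Adrb). Of 50600 gene identifiers in the count files, 45 matched and 44 are described here. They are 14 serotonin receptor genes, 5 muscarinic genes, 16 nicotinic subunit genes, 8 adrenergic receptor genes and 1 antisense transcript, Chrna1os. The groups were 4 ages of C57BL/6 mice: embryonic days 11 (E11), 13 (E13) and 17 (E17), and postnatal day 1 (P1). Each age had 3 libraries of poly(A)+ RNA, given below in the order A, B, C. A library held the cortical RNA of a single animal, and animals of the same age had different mothers. The labels name no treatment and no genetic change in any group, and the series title concerns zinc uptake and storage.

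These receptors pass on signals that reach the cortex largely from neurons whose cell bodies lie elsewhere: serotonin neurons of the raphe nuclei, noradrenaline neurons of the locus coeruleus and acetylcholine neurons of the basal forebrain. Most of them act through G proteins. Receptors that couple to Gi and Go lower cyclic AMP, those that couple to Gs raise it, and those that couple to Gq activate phospholipase C beta and release calcium. The nicotinic receptors and the serotonin receptor built from Htr3a are different in kind, being cation channels that open when the transmitter binds.

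Total counts were 28173745 to 45858712 per library. Levels are CPM, the counts per 1000000 counts of the scaled library, and levels are compared between genes only as CPM per kilobase of exon (CPM per kb), since a long transcript gives more reads. Tbr1, a transcription factor of early cortical neurons, was at a mean of 100.9, 219, 296 and 189.5 CPM from E11 to P1. The 8 pan-neuronal markers summed to 1313 to 1522 CPM at E11, 2511 to 3007 at E13, 10120 to 10290 at E17 and 10460 to 10750 at P1. Markers of neighbouring tissues differed between ages and between libraries. Erythroid markers had sums of 15950, 5523 and 9482 CPM at E11, and of no more than 1517 CPM in any later library. Choroid plexus markers had sums of 147.5, 268 and 96.5 CPM at E11, of 399, 355 and 43.5 CPM at E13, and of 1.24 to 9.34 CPM at E17 and P1. Meningeal fibroblast markers summed to 802 to 1427 CPM at E11 and E13 and to 14.1 to 56.1 CPM at E17 and P1. In RNA from whole cortex, fewer cells of a type and less RNA per cell cannot be told apart.

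Of the 44 genes, 31 passed the filter on low counts and were tested, and 27 reached a mean of 1 CPM at 1 age or more. Genes were tested with edgeR's quasi-likelihood test on all 12 libraries and adjusted over 17847 genes, and a change is called where the adjusted p is under 0.05. The 13 genes not tested had 1 to 73 counts in all 12 libraries together. A gene that passes the filter through the ages where it is high tends to differ between ages, so counts over the 31 tested genes describe them and support nothing further.

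Between E13 and E11, 15 of the 31 tested receptor genes changed, 9 higher and 6 lower at E13, where 40.1% of all tested genes changed (22.6% higher and 17.5% lower). Between E17 and E13, 27 changed, 23 higher and 4 lower at E17, where 73.8% of all tested genes changed (36.8% higher and 37.0% lower). Between P1 and E17, 12 changed, 11 higher and 1 lower at P1, where 49.9% of all tested genes changed (24.0% higher and 25.9% lower). Over the whole span, P1 against E11, 28 changed, 24 higher and 4 lower, where 82.3% of all tested genes changed (40.5% higher and 41.8% lower). The shares of receptor genes that changed, in the same order, were 48.4, 87.1, 38.7 and 90.3%, near the background each time, so the number called is not a result about these genes. The direction leaned to higher levels at the later age from E13 on, where the background was almost evenly split. Changes of at least 2-fold were called for 13, 25, 6 and 28 of the 31 genes in the same order, beside 9.76, 34.3, 9.72 and 48.6% of all tested genes, and these shares were above the background each time (41.9, 80.6, 19.4 and 90.3%). The median log2 fold change of the 31 genes was -0.02 for E13 against E11, 2.35 for E17 against E13, 0.18 for P1 against E17 and 3.24 for P1 against E11. Over all tested genes the same medians lay between -0.04 and 0.00. The 8 pan-neuronal markers were all higher at E17 than at E13 as well, with a median log2 fold change of 1.91, and their part in the receptor values was not tested. In the test across the 4 ages 30 of the 31 genes differed, beside 90.2% of all tested genes, and Htr2c did not pass (adjusted p = 0.147). The highest mean fell at P1 for 19 of the 31, at E17 for 6, at E13 for 1 and at E11 for 5.

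**Figure D1:**
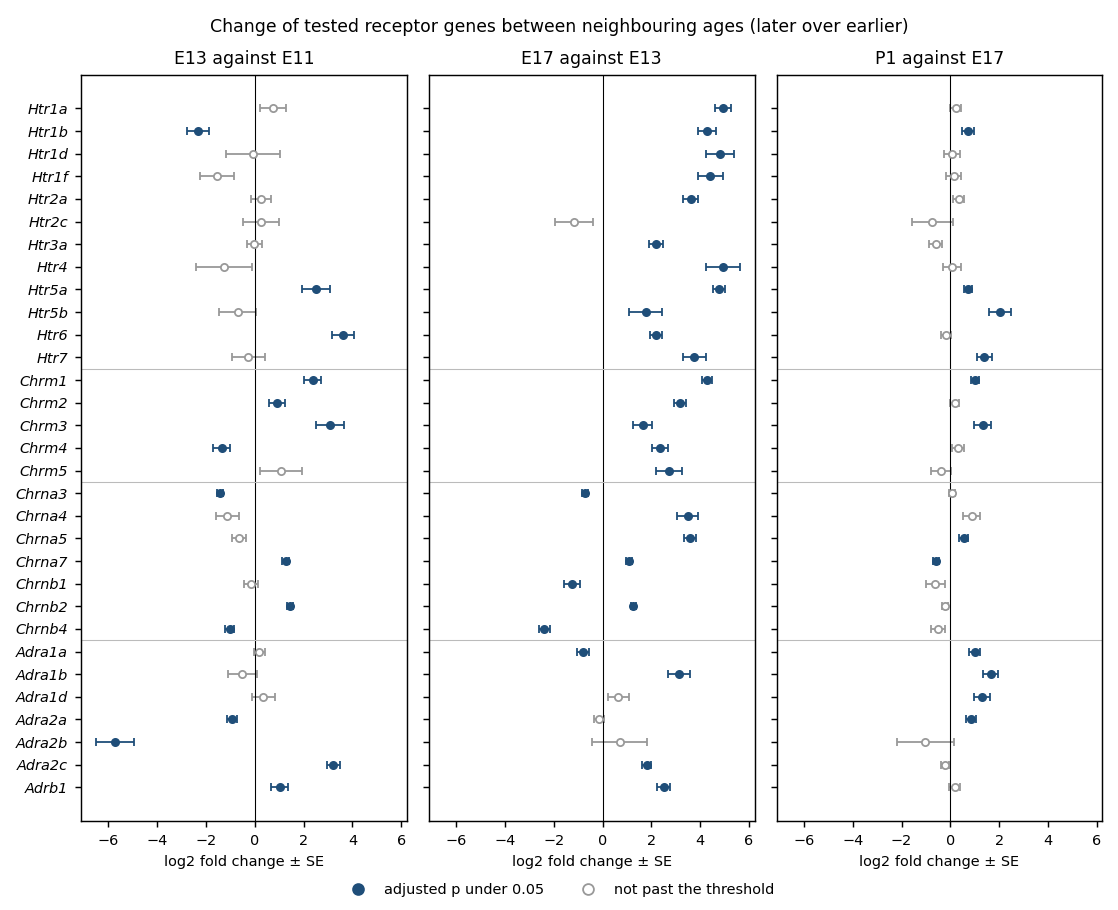
Log2 fold change (x axis, later age over earlier) with its standard error for the 31 tested receptor genes (rows, grouped by transmitter) in the 3 comparisons of neighbouring ages. Filled points passed an adjusted p of 0.05, and in the panel of E17 against E13, 23 of them lie to the right of 0 and 4 to the left.

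The 4 groups of receptor genes took different courses. The serotonin receptor genes summed to 2.46 ± 0.944 CPM per kb at E11, 2.62 ± 0.618 at E13, 13.96 ± 0.971 at E17 and 14.2 ± 0.694 at P1 (SD, n = 3 each). The muscarinic genes summed to 0.596 ± 0.127, 0.917 ± 0.0463, 7.62 ± 1.33 and 13.7 ± 1.42 CPM per kb at the same ages. The nicotinic subunit genes summed to 8.11 ± 0.509, 10.55 ± 1.48, 24.9 ± 0.115 and 24.9 ± 0.892 CPM per kb. The serotonin and nicotinic sums were thus about level between P1 and E17, while the muscarinic sum was higher at P1. The level sums held opposite movements. Htr3a went from 7.14 CPM per kb at E17 to 4.68 at P1. Of the 12 tested serotonin genes, 4 were called higher at P1 and none lower, beside 24.0 and 25.9% of all tested genes. Chrnb2 went from 15.1 to 13.0 CPM per kb and Chrna4 from 3.43 to 6.27. The adrenergic genes described here summed to 5.5 ± 1.21, 2.42 ± 0.321, 4.49 ± 0.352 and 6.46 ± 0.305 CPM per kb, with the lowest sum at E13. These sums are descriptions and were not tested.

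Among the serotonin receptor genes, 11 of the 12 tested were higher at E17 than at E13, beside 36.8% of all tested genes, and 9 of the 12 had their highest mean at P1. Between E13 and E11 only Htr5a and Htr6 rose and Htr1b fell, which is 3 of 12 beside the background of 40.1% given above. Per kilobase, Htr3a was the highest of the group at every age, with 63.7, 59.3, 51.1 and 32.9% of the summed level from E11 to P1. At P1 it was followed by Htr1a (14.4%), Htr5a (11.3%) and Htr7 (10.6%).

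**Figure D2:**
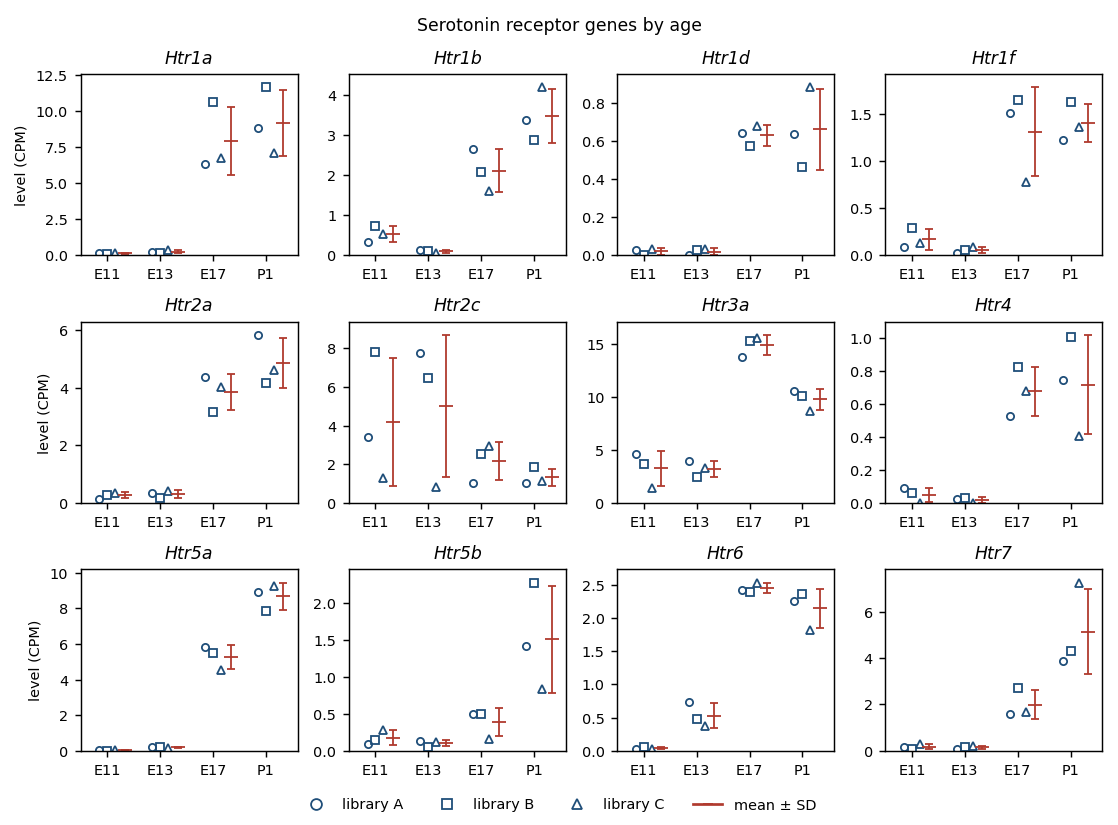
Level in CPM (y axis, from 0, with its own scale for each gene) of the 12 tested serotonin receptor genes in every library by age (x axis). Open symbols are libraries A, B and C, and red bars are the mean ± SD of 3 libraries. For 11 of the genes the E17 libraries lie above the E13 libraries, and Htr2c spreads widely at E11 and E13.

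The receptors that couple to Gi and Go are those of the Htr1 and Htr5 families. Htr1a was at 0.177, 0.118 and 0.159 CPM in the E11 libraries, at 0.211, 0.168 and 0.401 in those of E13, at 6.36, 10.6 and 6.73 in those of E17 and at 8.81, 11.6 and 7.09 in those of P1. All E17 libraries lay above all E13 libraries for this gene, which encodes an inhibitory receptor found on cell bodies and dendrites (E17 against E13, log2 fold change 4.93 ± 0.33 (SE), adjusted p = 1.15e-08). The P1 and E17 ranges overlapped, and the change between them did not pass (0.22, adjusted p = 0.446). Htr5a was at 0.0295, 0 and 0.0637 CPM in the E11 libraries, at 0.185, 0.225 and 0.154 in those of E13, at 5.83, 5.48 and 4.52 in those of E17 and at 8.92, 7.83 and 9.28 in those of P1. Htr5a encodes another Gi-coupled receptor, and its 4 ages did not overlap at any step. It had only 3 counts at E11, so its level at E13 is given as a ratio of counts per total, 6.11 times E11 with a 95% counting interval of 1.81 to 32.1 (adjusted p = 0.00352). Htr5a was higher at E17 than at E13 (log2 fold change 4.77 ± 0.25 (SE), adjusted p = 7.95e-10) and at P1 than at E17 (0.72, adjusted p = 0.00245). The intervals cover counting error only.

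Htr1b was at 0.325, 0.737 and 0.541 CPM in the E11 libraries, at 0.132, 0.112 and 0.0617 in those of E13, at 2.65, 2.08 and 1.59 in those of E17 and at 3.35, 2.86 and 4.17 in those of P1. Htr1b encodes an inhibitory receptor known from nerve terminals, and it was lowest at E13, with no overlap between any neighbouring ages. It fell at E13 against E11 (log2 fold change -2.33 ± 0.45 (SE), adjusted p = 0.00122), rose at E17 against E13 (log2 fold change 4.28 ± 0.38 (SE), adjusted p = 2.19e-07), and rose again at P1 (0.73, adjusted p = 0.0242). The last call was lost without E17 B (adjusted p = 0.0558), without E17 C (0.118) and without P1 C (0.102). In GENCODE M21 the exons of Htr1b overlap those of D430036J16Rik on the other strand, a transcript with a mean of 0.0865, 0.0108, 0.493 and 1.27 CPM of the total counts from E11 to P1, and how the authors' counting used strand is not given in the sources used here.

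Htr1f was at 0.0886, 0.295 and 0.127 CPM in the E11 libraries, at 0.0264, 0.0561 and 0.0925 in those of E13, at 1.51, 1.65 and 0.773 in those of E17 and at 1.23, 1.62 and 1.36 in those of P1. Htr1f was at most 0.0925 CPM at E13, and every E17 library was above every E13 library (log2 fold change 4.41 ± 0.51 (SE), adjusted p = 2.68e-06). Htr5b was at 0.0886, 0.147 and 0.286 CPM in the E11 libraries, at 0.132, 0.0561 and 0.123 in those of E13, at 0.492, 0.501 and 0.164 in those of E17 and at 1.41, 2.27 and 0.835 in those of P1. The second Htr5 gene thus had its highest values at P1, all above the E17 libraries (P1 against E17, log2 fold change 2.04 ± 0.45 (SE), adjusted p = 0.00225). Its rise at E17 against E13 (log2 fold change 1.77 ± 0.67 (SE), adjusted p = 0.0294) lost its call with limma-voom, without E13 B, E13 C, E17 A or E17 B, and with 3 libraries (E17 A, E13 C, E11 C) left out, where the adjusted p was 0.052 to 0.119. Htr1d, a receptor close to Htr1b in sequence and coupling, stayed under 1 CPM, at 0 to 0.0318 CPM in the libraries of E11 and E13 and 0.464 to 0.883 CPM in those of E17 and P1. With 62 counts at E17 and 2 at E13, it was 29.7 times as high per total count at E17 (95% counting interval 7.89 to 251, adjusted p = 4.19e-06).

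The Gq-coupled receptors are those of the Htr2 family. Htr2a was at 0.148, 0.295 and 0.35 CPM in the E11 libraries, at 0.344, 0.168 and 0.432 in those of E13, at 4.39, 3.15 and 4.03 in those of E17 and at 5.83, 4.17 and 4.61 in those of P1. Htr2a encodes the receptor through which serotonin excites many cortical pyramidal neurons, and it rose at E17 against E13 with no overlap (log2 fold change 3.61 ± 0.30 (SE), adjusted p = 8.95e-08). Htr2c was at 3.42, 7.81 and 1.3 CPM in the E11 libraries, at 7.75, 6.45 and 0.833 in those of E13, at 1.06, 2.54 and 2.93 in those of E17 and at 1.01, 1.85 and 1.12 in those of P1. Htr2c thus ran the other way in its means and spread widely, with libraries C low at both E11 and E13. No comparison of Htr2c passed the test: the nearest was P1 against E11 (-1.66, adjusted p = 0.0842). Without E11 C that fold change was -2.08 (adjusted p = 0.032), without E13 C it was -1.66 (0.025), and E17 against E13 passed without E13 C (-1.68, adjusted p = 0.0323). With 3 libraries (E17 A, E13 C, E11 C) left out, E17 against E13, P1 against E17 and P1 against E11 passed, with adjusted p of 2.48e-04 to 0.0417. Each of these 3 libraries had the lowest Htr2c level of its age, so leaving them out raised the means of E11, E13 and E17. The passes without these libraries, singly or together, therefore give no separate evidence of a fall.

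Htr2c is known to be abundant in the choroid plexus, the epithelium that makes cerebrospinal fluid. The choroid plexus markers were high and low in the same libraries as Htr2c at E11 and E13. E13 C, with 0.833 CPM of Htr2c, had a marker sum of 43.5 CPM, while E13 A, with 7.75 CPM of Htr2c, had 399 CPM. Ttr, the defining marker, was at 81.0, 160.8 and 28.6 CPM at E11, at 322, 290 and 24.2 CPM at E13, and at 0.187 to 7.16 CPM at E17. At E17 the library with the most Htr2c, E17 C at 2.93 CPM, had the lowest marker sum, 1.24 CPM. The part of choroid plexus cells in the Htr2c values was not tested. Htr2b, the third gene of the family, had 11 counts in all 12 libraries together, and none of them at E11 or E13. It did not pass the filter on low counts, and in the analysis without that filter Htr2b, with 8 counts at P1 and none at E11, was called higher at P1 (adjusted p = 0.0253). In GENCODE M21 the exons of Htr2b overlap those of Psmd1 on the other strand. Psmd1 was at a mean of 270, 235, 180 and 184 CPM of the total counts from E11 to P1, and the use of strand in counting is not given.

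The channel subunit Htr3a marks, in the mature cortex, interneurons that mostly come from the caudal ganglionic eminence. Htr3a was at 4.63, 3.68 and 1.46 CPM in the E11 libraries, at 3.97, 2.47 and 3.27 in those of E13, at 13.8, 15.3 and 15.5 in those of E17 and at 10.6, 10.1 and 8.64 in those of P1. All E17 libraries were far above all E13 libraries (E17 against E13, log2 fold change 2.20 ± 0.29 (SE), adjusted p = 2.45e-05). The P1 libraries then lay below the E17 libraries, a difference that did not pass (-0.61, adjusted p = 0.0808). It did pass with only the libraries of these 2 ages (7.66e-04), with limma-voom (0.0164) and without E11 A (0.0477) or E11 C (0.00349). The difference also passed with E17 A, E13 C and E11 C left out together (0.0101). The 7 markers of caudal ganglionic eminence interneurons summed to 84.4 to 94.2 CPM at E11, 72.8 to 89.5 at E13, 112 to 159.7 at E17 and 146 to 174 at P1. The sums give most weight to the abundant markers. At E17 against E13, 4 of the 7 were higher and 1 was lower, with a median log2 fold change of 3.75. At P1 against E17, 3 were higher and 1 was lower, with a median of 0.56. The part of these cells in the Htr3a values was not tested. Htr3b, which joins Htr3a in mixed channels, had 10 counts over all libraries and was not tested.

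The Gs-coupled receptors are Htr4, Htr6 and Htr7. Htr6 was at 0.0295, 0.0589 and 0.0318 CPM in the E11 libraries, at 0.74, 0.477 and 0.37 in those of E13, at 2.42, 2.4 and 2.53 in those of E17 and at 2.26, 2.37 and 1.81 in those of P1. Htr6 had the largest estimated rise of the serotonin receptor genes at E13 against E11 (log2 fold change 3.62 ± 0.44 (SE), adjusted p = 3.17e-05). That estimate rests on 4 counts at E11 and 57 at E13. Htr6 rose again at E17 (log2 fold change 2.19 ± 0.23 (SE), adjusted p = 1.35e-06). Htr7 was at 0.177, 0.0589 and 0.286 CPM in the E11 libraries, at 0.0793, 0.14 and 0.216 in those of E13, at 1.59, 2.72 and 1.66 in those of E17 and at 3.86, 4.33 and 7.25 in those of P1. Htr7 stayed low through E13, then rose at E17 (log2 fold change 3.77 ± 0.46 (SE), adjusted p = 6.41e-06) and at P1 (log2 fold change 1.38 ± 0.31 (SE), adjusted p = 0.00245), without overlap at either step. Htr4 remained under 1.01 CPM in every library, with 2 counts at E13 and 66 at E17. That is 31.6 times as many per total count at E17 (95% counting interval 8.42 to 267, adjusted p = 2.12e-05).

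The 5 muscarinic receptor genes were all tested and all rose at E17 against E13, beside 36.8% of all tested genes, and all were higher at P1 than at E11, beside 40.5%. Their order changed with age. Chrm4 held 71.5% of the summed muscarinic level per kilobase at E11, and Chrm1 held 61.8% at P1 against 55.5% at E17. The 8 pan-neuronal markers were also all higher at E17 than at E13 and at P1 than at E11. At E13 against E11 all 8 markers rose, while Chrm1, Chrm2 and Chrm3 rose, Chrm4 fell and Chrm5 did not pass. At P1 against E17 4 of the 8 markers rose, beside Chrm1 and Chrm3 of the muscarinic genes. The part of neuronal content in these values was not tested.

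**Figure D3:**
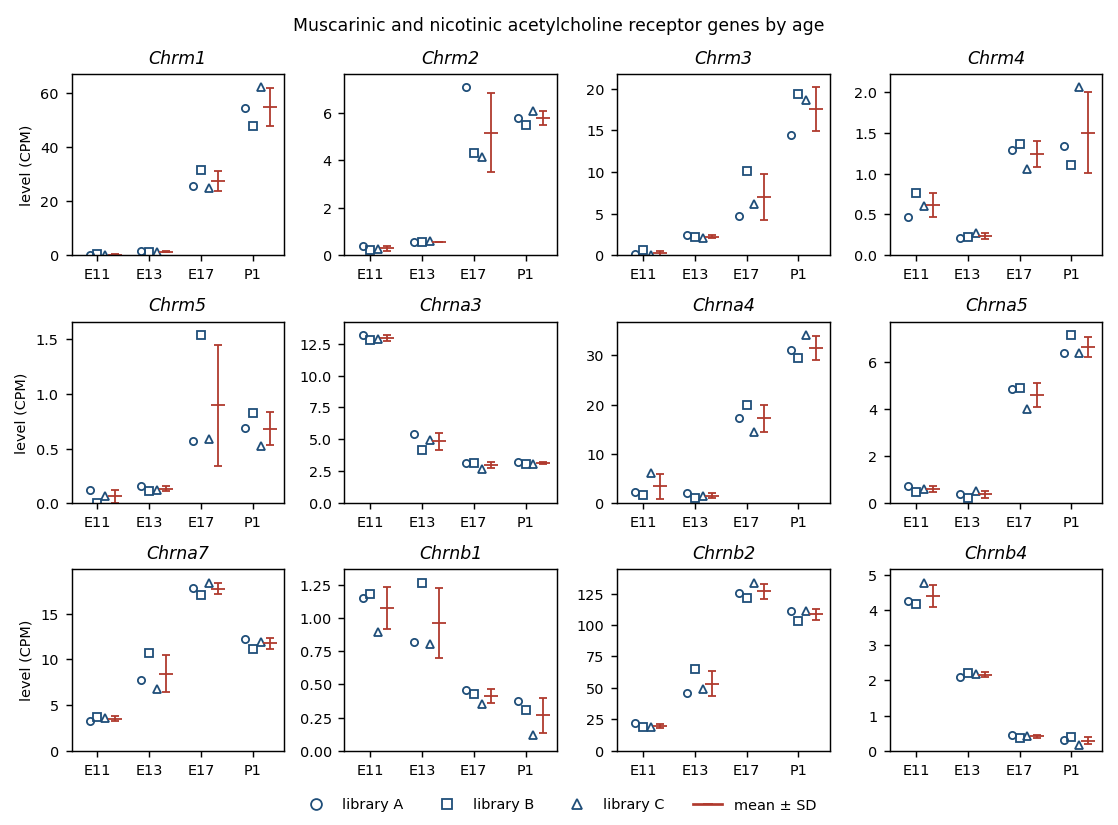
Level in CPM (y axis, from 0, with its own scale for each gene) of the 5 muscarinic and 7 tested nicotinic receptor genes in every library by age (x axis). Open symbols are libraries A, B and C, and red bars are the mean ± SD of 3 libraries. Chrm1 and Chrna4 are highest at P1, Chrnb2 and Chrna7 at E17, and Chrna3, Chrnb1 and Chrnb4 at E11.

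Chrm1, Chrm3 and Chrm5 couple to Gq. Chrm1 was at 0.207, 0.501 and 0.0955 CPM in the E11 libraries, at 1.56, 1.35 and 1.33 in those of E13, at 25.8, 31.8 and 24.8 in those of E17 and at 54.6, 48 and 62.1 in those of P1. Chrm1, the main muscarinic receptor gene of adult forebrain neurons, went up at each step with no overlap. The steps were log2 fold change 2.37 ± 0.35 (SE), adjusted p = 0.000203 for E13 against E11, log2 fold change 4.27 ± 0.21 (SE), adjusted p = 1.1e-09 for E17 against E13 and log2 fold change 1.00 ± 0.16 (SE), adjusted p = 0.000257 for P1 against E17. E11 B was high for the gene at E11, and without it the first value was 3.18 and the value for P1 against E11 was 8.45, where all libraries gave 7.64, adjusted p = 1.69e-11.

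Chrm3 was at 0.177, 0.589 and 0 CPM in the E11 libraries, at 2.43, 2.19 and 2.1 in those of E13, at 4.77, 10.1 and 6.12 in those of E17 and at 14.5, 19.4 and 18.6 in those of P1. Chrm3 also rose at each step, and E11 B again stood above E11 A and C. The steps were log2 fold change 3.08 ± 0.57 (SE), adjusted p = 0.00138 for E13 against E11, log2 fold change 1.64 ± 0.38 (SE), adjusted p = 0.00218 for E17 against E13 and log2 fold change 1.33 ± 0.34 (SE), adjusted p = 0.00744 for P1 against E17. Without E11 B the first was 4.56, and with limma-voom it was 4.16. Chrm5 was low throughout, at 0 to 0.159 CPM per library at E11 and E13 and 0.525 to 1.54 CPM at E17 and P1. It rose at E17 against E13 (log2 fold change 2.70 ± 0.53 (SE), adjusted p = 0.000424), a value that was 2.10 without E17 B, the library with the most Chrm5.

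Chrm2 and Chrm4 couple to Gi and Go. Chrm2 was at 0.413, 0.236 and 0.255 CPM in the E11 libraries, at 0.555, 0.561 and 0.586 in those of E13, at 7.08, 4.29 and 4.15 in those of E17 and at 5.78, 5.49 and 6.08 in those of P1. Chrm2, known as an autoreceptor of cholinergic terminals and from the heart, rose at E17 against E13 (log2 fold change 3.17 ± 0.24 (SE), adjusted p = 4e-08). Its smaller rise at E13 against E11 (0.90, adjusted p = 0.0436) was lost in 11 of the alternative analyses, with adjusted p of 0.052 to 0.15, among them leaving out E11 B, E11 C, any E13 library or any P1 library. Chrm4 was at 0.472, 0.766 and 0.605 CPM in the E11 libraries, at 0.211, 0.225 and 0.278 in those of E13, at 1.29, 1.36 and 1.05 in those of E17 and at 1.33, 1.11 and 2.05 in those of P1. Chrm4 was lower in every E13 library than in every E11 library (log2 fold change -1.36 ± 0.34 (SE), adjusted p = 0.00681) and higher in every E17 library than in every E13 library (log2 fold change 2.35 ± 0.32 (SE), adjusted p = 1.47e-05). Chrm4 is abundant in striatal projection neurons, and the 8 striatal markers summed to 57.1 to 60.8 CPM at E11, 85.5 to 103.7 at E13, 231 to 298 at E17 and 215 to 251 at P1. Their part in the Chrm4 values was not tested.

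Nicotinic receptor subunit genes split by direction. Of the 7 tested, Chrnb2, Chrna4, Chrna5 and Chrna7 were higher at P1 than at E11 and Chrna3, Chrnb4 and Chrnb1 were lower. The same 4 rose and the same 3 fell at E17 against E13. All tested genes split in a similar way, so the split itself is not particular to this group. Of them, 40.5% were higher and 41.8% lower at P1 than at E11. At E17 against E13, 36.8% rose and 37.0% fell. Brain receptors of high affinity for nicotine combine alpha4 with beta2, alpha7 forms channels by itself, alpha3 with beta4 is typical of autonomic ganglia, alpha5 joins other subunits, and beta1 belongs to the muscle receptor. Chrna3, Chrna5 and Chrnb4 lie next to each other on chromosome 9, with Chrna5 read from the plus strand and the others from the minus strand, and they differed in direction. Chrnb2 is on chromosome 3 and was the highest subunit gene per kilobase from E13 on. The promoters of these 4 genes are shown because the 3 neighbours took opposite courses and Chrnb2 dominated the group. They run from 250 bases before to 50 bases after the start, 5′ to 3′ on the gene's strand, from RefSeq on GRCm38.p6, and capitals mark the GC box GGGCGG on either strand.
Chrna5, chr9:54981238-54981537, plus strand: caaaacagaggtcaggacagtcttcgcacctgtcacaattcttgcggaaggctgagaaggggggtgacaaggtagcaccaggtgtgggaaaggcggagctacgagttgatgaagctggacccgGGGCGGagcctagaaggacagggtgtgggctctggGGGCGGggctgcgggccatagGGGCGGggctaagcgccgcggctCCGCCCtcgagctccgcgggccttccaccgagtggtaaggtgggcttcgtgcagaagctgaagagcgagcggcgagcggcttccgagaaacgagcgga
Chrna3, chr9:55026513-55026812, minus strand: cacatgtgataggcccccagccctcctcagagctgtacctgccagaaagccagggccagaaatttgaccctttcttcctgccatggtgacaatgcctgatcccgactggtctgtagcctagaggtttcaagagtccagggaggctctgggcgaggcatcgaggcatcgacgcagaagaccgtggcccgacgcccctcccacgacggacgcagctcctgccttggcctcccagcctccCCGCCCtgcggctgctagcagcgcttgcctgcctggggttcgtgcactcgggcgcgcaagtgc
Chrnb4, chr9:55048495-55048794, minus strand: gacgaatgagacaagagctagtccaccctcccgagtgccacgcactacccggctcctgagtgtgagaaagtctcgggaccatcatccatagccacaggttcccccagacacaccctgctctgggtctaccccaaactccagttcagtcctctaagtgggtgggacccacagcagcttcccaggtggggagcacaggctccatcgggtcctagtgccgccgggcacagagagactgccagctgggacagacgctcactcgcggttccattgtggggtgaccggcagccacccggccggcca
Chrnb2, chr3:89764583-89764882, minus strand: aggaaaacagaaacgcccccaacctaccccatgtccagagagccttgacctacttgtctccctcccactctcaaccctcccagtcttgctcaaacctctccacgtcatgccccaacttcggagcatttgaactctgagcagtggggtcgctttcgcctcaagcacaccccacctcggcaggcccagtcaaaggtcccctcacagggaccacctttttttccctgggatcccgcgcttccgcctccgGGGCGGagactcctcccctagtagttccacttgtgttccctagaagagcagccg

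The Chrna5 window holds 4 GC boxes, those of Chrna3 and Chrnb2 hold 1 each and that of Chrnb4 holds none. RefSeq lists a second Chrna5 start upstream, whose window holds no GC box. The table had 37 promoters for 33 of the 44 genes, and 19 of the 37 (51.4%) held at least 1 GC box, beside 35.7% of all 32851 promoters of the same length. Their median number of CpG dinucleotides was 11, beside 7 over all promoters. These matches are descriptions of letters, and the build the authors used is not given in the sources used here.

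Chrna3 was at 13.2, 12.8 and 12.9 CPM in the E11 libraries, at 5.45, 4.12 and 4.97 in those of E13, at 3.14, 3.11 and 2.69 in those of E17 and at 3.19, 3.06 and 3.08 in those of P1. Chrna3 thus separated E11 from all later ages. It fell at E13 against E11 (log2 fold change -1.42 ± 0.12 (SE), adjusted p = 1.13e-06) and less at E17 against E13 (-0.71, adjusted p = 0.000156), and the P1 and E17 ranges overlapped. Chrnb4 was at 4.25, 4.18 and 4.78 CPM in the E11 libraries, at 2.09, 2.22 and 2.19 in those of E13, at 0.454, 0.358 and 0.422 in those of E17 and at 0.319, 0.386 and 0.167 in those of P1. Its partner subunit Chrnb4 fell at both steps without overlap, with log2 fold change -1.02 ± 0.18 (SE), adjusted p = 0.000623 for E13 against E11 and log2 fold change -2.38 ± 0.23 (SE), adjusted p = 4.55e-07 for E17 against E13. Chrna5 was at 0.709, 0.471 and 0.605 CPM in the E11 libraries, at 0.397, 0.225 and 0.524 in those of E13, at 4.88, 4.9 and 4.01 in those of E17 and at 6.42, 7.16 and 6.39 in those of P1. Their neighbour Chrna5 took another course, low at E11 and E13 and higher in every E17 library (log2 fold change 3.58 ± 0.23 (SE), adjusted p = 7.42e-09). A further rise of Chrna5 at P1 against E17 (0.54, adjusted p = 0.0205) was lost without E17 C (0.0945) and without P1 B (0.0597), and a lower E13 than E11 level (-0.65, adjusted p = 0.0863) passed only without E13 C (adjusted p = 0.0327).

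Chrnb2 was at 21.7, 18.5 and 18.6 CPM in the E11 libraries, at 45.9, 64.7 and 49.1 in those of E13, at 125, 122 and 134 in those of E17 and at 111, 104 and 111 in those of P1. Chrnb2 rose at E13 (log2 fold change 1.44 ± 0.11 (SE), adjusted p = 1.37e-06) and again at E17 (log2 fold change 1.25 ± 0.11 (SE), adjusted p = 2.57e-07), each time without overlap. It held 28.9% of the summed nicotinic level per kilobase at E11, just under Chrna3 with 30.3%, and 60.2, 60.9 and 52.1% at E13, E17 and P1. Every P1 library was below every E17 library, a difference that did not pass (-0.23, adjusted p = 0.094) except with only the libraries of these ages (0.00393) or without E13 B (0.00921). The exons of Chrnb2 overlap those of Adar on the other strand in GENCODE M21. Adar was at a mean of 98.2, 117, 177 and 159 CPM of the total counts from E11 to P1, and reads from the shared stretch cannot be assigned without the strand setting. Of the tested receptor genes, 5 overlap a gene on the other strand, and the partners of Chrm1, Chrm2 and Adra1d were at means of at most 0.545 CPM of the total counts at any age.

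Chrna4 was at 2.3, 1.59 and 6.21 CPM in the E11 libraries, at 2.04, 1.01 and 1.51 in those of E13, at 17.2, 19.97 and 14.5 in those of E17 and at 31, 29.4 and 34.1 in those of P1. Chrna4 was uneven at E11, with E11 C above the others. Its lower level at E13 than at E11 did not pass (-1.13, adjusted p = 0.076), but did with DESeq2 (0.0386) and without E11 B (0.0164). Chrna4 then rose at E17 against E13 (log2 fold change 3.49 ± 0.43 (SE), adjusted p = 2.36e-05). The P1 libraries all lay above the E17 libraries, but that difference did not pass (0.88, adjusted p = 0.0565). It did pass in 6 alternative analyses, among them only the libraries of these ages (1.85e-04), limma-voom (0.00126), and leaving out E11 B (0.0228) or E11 C (8.67e-04). For P1 against E11 the fold change was 3.24, adjusted p = 1.58e-05, and 4.01 without E11 C.

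Chrna7 was at 3.22, 3.71 and 3.6 CPM in the E11 libraries, at 7.77, 10.7 and 6.79 in those of E13, at 17.8, 17.1 and 18.3 in those of E17 and at 12.3, 11.1 and 11.9 in those of P1. Chrna7 peaked at E17, with no overlap at any step. It rose at E13 (log2 fold change 1.26 ± 0.15 (SE), adjusted p = 2.15e-05) and at E17 (log2 fold change 1.07 ± 0.14 (SE), adjusted p = 7.01e-06) and was the only nicotinic gene called lower at P1 against E17 (-0.59, adjusted p = 0.00222). Chrnb1 was at 1.15, 1.18 and 0.891 CPM in the E11 libraries, at 0.82, 1.26 and 0.802 in those of E13, at 0.454, 0.429 and 0.352 in those of E17 and at 0.373, 0.309 and 0.119 in those of P1. Chrnb1, the muscle beta subunit, was low and fell at E17 against E13 (log2 fold change -1.24 ± 0.33 (SE), adjusted p = 0.00392). The 9 skeletal muscle markers summed to 1.21 to 2.55 CPM at E11, 0.954 to 1.36 at E13, 1.85 to 2.93 at E17 and 5.86 to 8.83 at P1. Of the 4 tested, 3 were higher at P1 than at E11 and none was lower, with a median log2 fold change of 2.91, while the muscle regulators Myog, Myod1 and Myf5 were at means of 0 to 0.0402 CPM at every age. The part of muscle RNA in the Chrnb1 values was not tested.

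The 9 other nicotinic subunit genes did not pass the filter on low counts. They had 1 count (Chrnd), 2 (Chrna9), 4 (Chrng), 6 (Chrna6), 7 (Chrnb3), 9 (Chrna10), 11 (Chrna2), 15 (Chrne) and 35 (Chrna1) in all 12 libraries together. These include the other muscle subunits (Chrna1, Chrnd, Chrne and Chrng) and subunits known from sensory hair cells (Chrna9 and Chrna10). The antisense transcript Chrna1os had 73 counts. Among these subunit genes, the analysis without the filter called Chrne higher at P1 than at E11 (12 counts at P1 and none at E11, adjusted p = 0.00472) and made no other call in the 4 comparisons of ages.

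Adrenergic receptor genes were divided by age of highest level. Of the 7 described here that were tested, 2 were highest at E11 (Adra2a and Adra2b), 1 at E17 (Adra2c) and 4 at P1 (Adra1a, Adra1b, Adra1d and Adrb1). Between E13 and E11, 2 rose and 2 fell, where 22.6% of all tested genes rose and 17.5% fell. Between E17 and E13, 3 rose and 1 fell, where 36.8% of all tested genes rose and 37.0% fell. Between P1 and E17, 4 rose and none fell, beside background shares of 24.0 and 25.9%. Adra2a was the highest per kilobase at E11, E13 and P1, with 53.4, 62.9 and 38.2% of the summed level, and was close to Adra2c at E17 (30.7 and 32.5%). Adra2b held another 39.5% of the sum at E11, where its libraries ranged from 3.27 to 14.3 CPM.

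**Figure D4:**
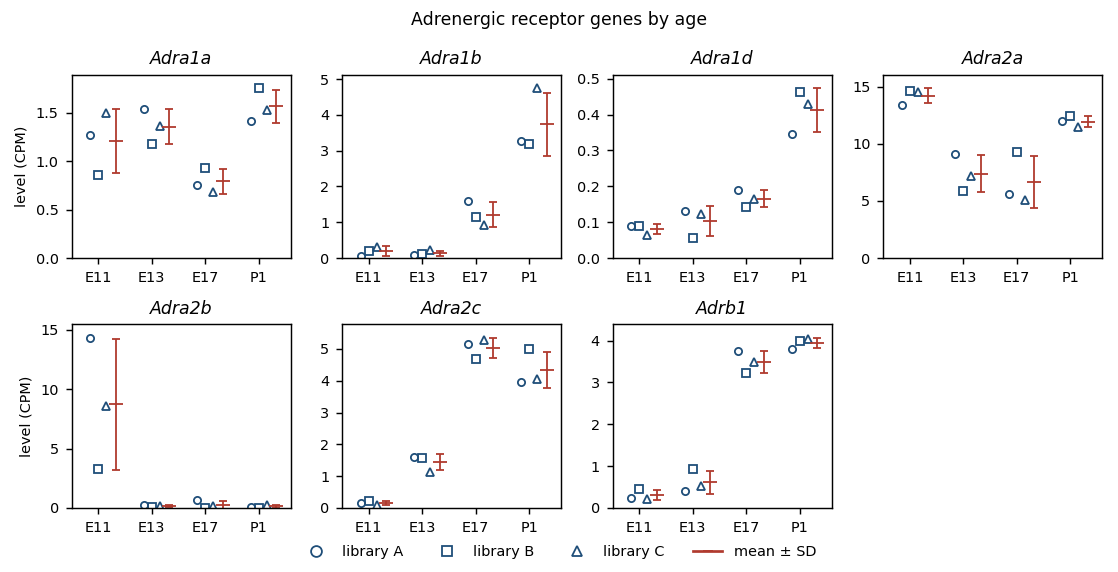
Level in CPM (y axis, from 0, with its own scale for each gene) of 7 tested adrenergic receptor genes in every library by age (x axis). Open symbols are libraries A, B and C, and red bars are the mean ± SD of 3 libraries. Adra2b is high at E11 and low after it, while Adra1b, Adra2c and Adrb1 are low at E11.

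The alpha2 receptors couple to Gi and Go. Adra2a was at 13.4, 14.6 and 14.5 CPM in the E11 libraries, at 9.07, 5.86 and 7.16 in those of E13, at 5.64, 9.27 and 5.06 in those of E17 and at 11.9, 12.4 and 11.4 in those of P1. Adra2a, the most widespread alpha2 receptor gene of the brain, was lower at E13 and E17 than at either end of the series. P1 against E11 did not pass (-0.25, adjusted p = 0.24), but did so when counts were scaled only to their totals (-0.48, adjusted p = 0.0358) or when E13 and E17 were left out of the fit (-0.23, adjusted p = 0.0302). It fell at E13 against E11 (-0.94, adjusted p = 0.00224) and rose at P1 against E17 (0.85, adjusted p = 0.00347), both without overlap and both under 2-fold. Without E17 B, the highest E17 library, the difference of E17 against E13 became -0.46 (adjusted p = 0.0183), where all libraries gave -0.16, adjusted p = 0.498. Adra2c was at 0.148, 0.206 and 0.0955 CPM in the E11 libraries, at 1.59, 1.57 and 1.14 in those of E13, at 5.15, 4.69 and 5.27 in those of E17 and at 3.97, 5 and 4.06 in those of P1. Adra2c rose at E13 (log2 fold change 3.22 ± 0.27 (SE), adjusted p = 1.54e-06) and at E17 (log2 fold change 1.81 ± 0.18 (SE), adjusted p = 5.94e-07) with no overlap, and did not pass between P1 and E17 (-0.22, adjusted p = 0.292).

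Adra2b was at 14.3, 3.27 and 8.56 CPM in the E11 libraries, at 0.211, 0.112 and 0.154 in those of E13, at 0.644, 0 and 0.188 in those of E17 and at 0.106, 0.0258 and 0.239 in those of P1. Adra2b was found almost only at E11, where its libraries differed by several fold. It fell at E13 against E11 (log2 fold change -5.73 ± 0.79 (SE), adjusted p = 0.000211) with no overlap, the largest change of any receptor gene in the 3 comparisons of neighbouring ages. E11 A, B and C ranked the same way for Adra2b and for the summed erythroid markers, 15950, 5523 and 9482 CPM. This order was not particular to erythroid markers. The sums of subplate, medial ganglionic eminence, hindbrain and basal forebrain cholinergic markers had it too, with smaller fold differences between the E11 libraries. Per 1000 CPM of erythroid markers, Adra2b was at 0.898, 0.592 and 0.903 CPM at E11 at 0.188, 0.182 and 0.102 CPM at E13, at 5.73, 0 and 1.38 CPM at E17 and at 3.33, 1.14 and 13.8 CPM at P1. The ratio was thus lower at E13 than at E11, and at E17 and P1, where Adra2b was at 0 to 0.644 CPM and the markers summed to 17.3 to 136 CPM, it was above the E11 values in all libraries but E17 B. All 8 erythroid markers were lower at E13 than at E11, with a median log2 fold change of -3.53, and their part in the Adra2b values was not tested.

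**Figure D5:**
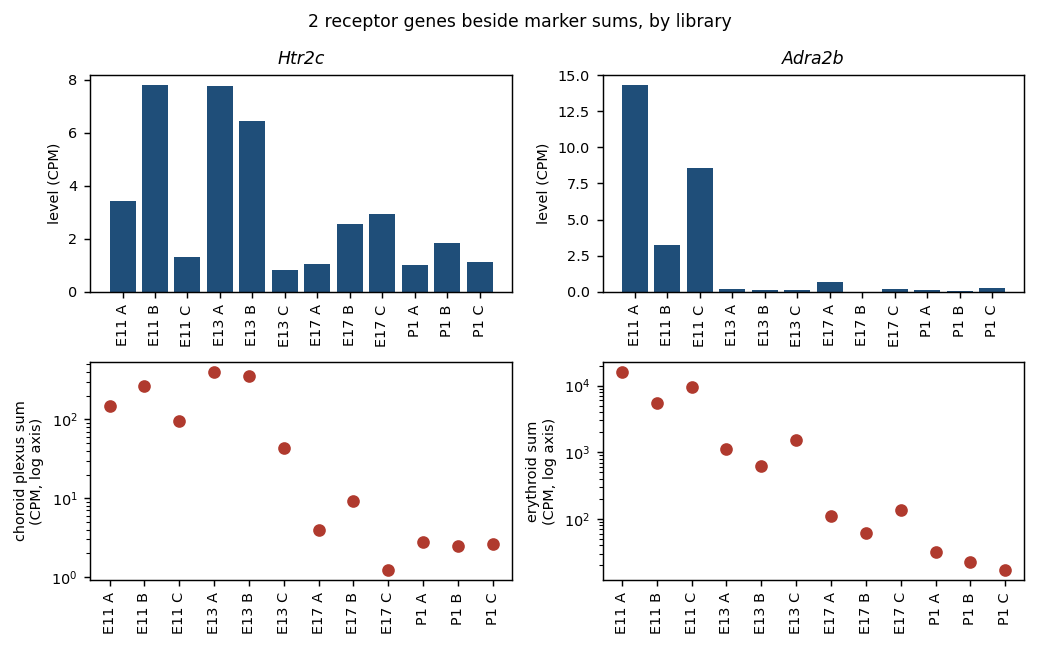
Htr2c (top left) and Adra2b (top right) in CPM as bars from 0, above the summed choroid plexus and erythroid markers (points, log axis), for each of the 12 libraries along the x axis. E11 C and E13 C are low for both Htr2c and choroid plexus markers, and E11 A is highest for both Adra2b and erythroid markers.

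The alpha1 receptors couple to Gq. Adra1b was at 0.059, 0.206 and 0.318 CPM in the E11 libraries, at 0.0793, 0.112 and 0.216 in those of E13, at 1.59, 1.15 and 0.914 in those of E17 and at 3.27, 3.19 and 4.75 in those of P1. Adra1b rose at E17 (log2 fold change 3.14 ± 0.45 (SE), adjusted p = 2.49e-05) and again at P1 (log2 fold change 1.64 ± 0.30 (SE), adjusted p = 0.000584), each time without overlap. Adra1a was at 1.27, 0.854 and 1.5 CPM in the E11 libraries, at 1.53, 1.18 and 1.36 in those of E13, at 0.757, 0.93 and 0.68 in those of E17 and at 1.41, 1.75 and 1.53 in those of P1. Adra1a stayed in a narrow range, lower at E17 than at E13 (-0.79, adjusted p = 0.00843) and higher at P1 than at E17 (1.00, adjusted p = 0.00314), without overlap at either step. Adra1d stayed at 0.0561 to 0.464 CPM in all libraries and was higher at P1 than at E17 (log2 fold change 1.31 ± 0.33 (SE), adjusted p = 0.00486), a call that DESeq2 did not make (adjusted p = 0.0615).

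The beta receptors couple to Gs. Adrb1 was at 0.236, 0.442 and 0.223 CPM in the E11 libraries, at 0.397, 0.926 and 0.524 in those of E13, at 3.75, 3.22 and 3.49 in those of E17 and at 3.81, 3.99 and 4.03 in those of P1. Adrb1, the main beta receptor of the forebrain and heart, rose at E17 (log2 fold change 2.5 ± 0.26 (SE), adjusted p = 1.12e-06). Its rise at E13 against E11 (log2 fold change 1.02 ± 0.34 (SE), adjusted p = 0.0306) rested on overlapping libraries, since E11 B was above E13 A. That call was lost without E11 A, E11 C or E13 B, with limma-voom, with only the libraries of these ages and with 3 libraries (E17 A, E13 C, E11 C) left out, where the adjusted p was 0.0505 to 0.214. Adrb3 had 31 counts in all libraries together and was not tested.

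The genes that make, carry and remove the transmitters were at levels from near 0 to a mean of 45.1 CPM, that of Maoa, which breaks serotonin down. Of 7 serotonin genes, 4 were higher at P1 than at E11 and none was lower. Tph2, the enzyme that starts serotonin synthesis in neurons, was at a mean of 0.0197, 0.311, 0.769 and 1.32 CPM from E11 to P1. Slc6a4, the serotonin transporter, fell at E13 against E11 (log2 fold change -2.28 ± 0.30 (SE), adjusted p = 6.79e-05) and rose at E17 against E13 (log2 fold change 2.74 ± 0.30 (SE), adjusted p = 1.59e-06), at means of 1.48, 0.299, 2.05 and 2.495 CPM from E11 to P1. Fev, a transcription factor of hindbrain serotonin neurons, was at means of at most 0.031 CPM at any age. The noradrenaline genes Th, Dbh, Pnmt and Slc6a2, of which the first pair make the transmitter, Pnmt turns it into adrenaline and Slc6a2 takes it up, did not pass the filter on low counts, and Th had the highest level of them, with 0.236, 0.118 and 1.94 CPM in the E11 libraries. Only E11 C was above 1 CPM, and the mean of 0.765 CPM at E11 rests on it.

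Of the 5 acetylcholine genes, 3 were tested, of which 1 was higher and 2 were lower at P1 than at E11. Ache, the enzyme that breaks acetylcholine down, was at a mean of 5.33, 0.755, 9.94 and 34.3 CPM from E11 to P1. It fell at E13 (log2 fold change -2.82 ± 0.41 (SE), adjusted p = 2.73e-04), rose at E17 (log2 fold change 3.72 ± 0.39 (SE), adjusted p = 4.89e-06) and rose at P1 (log2 fold change 1.79 ± 0.29 (SE), adjusted p = 4.76e-04). Bche, a related esterase, was lower at P1 than at E11 (log2 fold change -2.16 ± 0.27 (SE), adjusted p = 5.57e-06). Chat, which makes acetylcholine, was at means of 0.0159 to 0.0558 CPM, and Lhx8, a factor of basal forebrain cholinergic neurons, at 0.0168 to 0.0739 CPM, and the 6 markers of those neurons summed to 0.464 to 1.8 CPM in all libraries. Of these markers 2 were tested, and both were lower at P1 than at E11.

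Among 13 chaperones, Ly6 proteins and clustering factors of nicotinic receptors, 10 were higher and 2 lower at P1 than at E11. The largest rises were those of Dok7, an adaptor of the muscle synapse (log2 fold change 5.63 ± 0.22 (SE), adjusted p = 1.89e-11), and Lypd6b, a Ly6 protein that acts on nicotinic receptors (log2 fold change 4.32 ± 0.29 (SE), adjusted p = 1.9e-08). Lrp4, the agrin receptor, fell (log2 fold change -2.30 ± 0.08 (SE), adjusted p = 5.3e-12). Of 10 G protein alpha subunit genes, 6 were higher and 3 lower at P1 than at E11. Gnal, an alpha subunit that activates adenylyl cyclase, had a mean of 335 CPM at P1 against 4.89 CPM at E11 (log2 fold change 6.10 ± 0.17 (SE), adjusted p = 6.3e-12), and Gnaz rose as well (log2 fold change 3.43 ± 0.11 (SE), adjusted p = 2.67e-12). Gna14 (log2 fold change -3.41 ± 0.32 (SE), adjusted p = 2.53e-07) and Gnai2 (log2 fold change -1.21 ± 0.06 (SE), adjusted p = 2.59e-10) fell.

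Of 8 adenylyl cyclases, the enzymes that Gs and Gi receptors act on, 7 were higher and none lower at P1 than at E11. Adcy1 averaged 1268 CPM at P1 and 22.6 CPM at E11 (log2 fold change 5.81 ± 0.16 (SE), adjusted p = 4.4e-12), and Adcy8 averaged 16.9 CPM at P1 and 0.869 CPM at E11 (log2 fold change 4.29 ± 0.28 (SE), adjusted p = 8.9e-09). Of 4 phospholipase C beta genes, which serve Gq receptors, Plcb1 (log2 fold change 3.28 ± 0.16 (SE), adjusted p = 1.4e-09) and Plcb2 (log2 fold change 0.77 ± 0.27 (SE), adjusted p = 0.0173) were higher and Plcb3 was lower (log2 fold change -1.18 ± 0.07 (SE), adjusted p = 1.1e-09). Of 7 receptor kinases and arrestins, 5 were higher and none lower, led by Grk3 (log2 fold change 3.10 ± 0.10 (SE), adjusted p = 3.82e-12) and Arrb1 (log2 fold change 2.25 ± 0.10 (SE), adjusted p = 1.1e-10). Receptors for other amines were also higher at P1 in 5 of the 6 dopamine and histamine receptor genes tested. Drd1 was at a mean of 0.0106, 1.91, 14.4 and 11.4 CPM from E11 to P1, and Hrh2 had no counts at E11 and a mean of 3.65 CPM at P1. All these shares stand beside the 82.3% of all tested genes that changed over the same span, 40.5% higher and 41.8% lower at P1.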

How the data were processed

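The authors deposited raw read counts per gene for each of the 12 libraries, as whole numbers with no normalization. Per the labels' protocols, libraries were made with a strand-specific poly(A)+ kit and sequenced as 75 bp single reads. Per the submitters' processing notes, the tools were STAR 2.5.2b, HTSeq 0.5.3, bcl2fastq 2.18, DESeq2 1.8.1 and SAMtools. The build, the annotation and any use of strand in counting are not stated in those notes. Symbols were joined by Ensembl identifier (50376 of 50600 matched) and exon lengths came from GENCODE M21.

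The counts were tested in edgeR 4.0.16 under R 4.3.3. Its filter, run by age with a minimum count of 10, kept 17847 genes. Scaling was by TMM (factors 0.92 to 1.09). All 12 libraries entered 1 robust quasi-likelihood fit with a term for each age. Two-sided p-values were adjusted over the tested genes (Benjamini and Hochberg). The common biological coefficient of variation was 0.106. Libraries of the same age differed by more than counting noise, so none was a copy of another. The fit was tested on simulated data.

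Some genes of the rule and the lists are not reported here. The receptor genes, gene lists and comparisons were chosen with earlier results of these data known. Genes with a mean of 1 CPM at an age are given by library, and full statistics go to genes past the threshold with a 2-fold change between neighbouring ages. From each list at most 2 genes a direction are named, the largest changes among those reaching 1 CPM. Alternatives were RLE and upper-quartile factors, library size alone, other filters, only the ages compared, a replicate block, DESeq2 1.42.0, limma-voom 3.58.1, and libraries left out, singly and as a set of 3 (E17 A, E13 C, E11 C) taken from an earlier analysis of these data.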

Additional observations from a re-analysis of the deposited data

How the results depend on the processing

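The number of receptor genes changed stayed within 1.5 times the main count under every alternative run. It was 13 to 16 for E13 against E11, 23 to 27 for E17 against E13, 10 to 15 for P1 against E17, 23 to 30 for P1 against E11 and 25 to 33 across the 4 ages, the leave-one-out analyses included. With the letter A, B or C as a replicate block the counts were 15, 27, 12, 28 and 30, the same as without it. Letters did not pair the libraries: deviations of 18 pairs with 1 letter correlated at -0.343 to 0.33, 4 of them over 0.1, and 9 of 36 best matches had their own letter. For the receptor genes given with full statistics, 960 alternative values over 44 results kept the direction, and 13 of them no longer passed. Scaling by library size alone moved the median of all genes to -0.22 for E17 against E13 and -0.27 for P1 against E11, and the share of higher calls among all genes at E17 against E13 to 39.8% from 49.8%, while that of the receptor genes stayed at 85.2%. Depth limits genes under 1 CPM, of which 13 were removed by the filter on low counts. Without the filter, of the 12 protein-coding genes among them, Chrne and Htr2b were called higher at P1 than at E11, and none was called in another comparison of ages.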
